A study of Homo sapiens with 22 samples.

Results

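The regions described here are 1471 places where a peak of phosphorylated RNA polymerase II was called after knockdown of the transcription factor E2F3. These places had no call after a control siRNA, but had one in other libraries of the same cell line. They were chosen from lists of peaks: rows of the siE2F3 list that overlap no row of the siCtrl list by even 1 bp and that overlap a row of the Ctrl list, of the H1-10 OE list, or of both. The siE2F3 list held 83067 regions, of which 18997 (22.9%) had no overlap in siCtrl, and 1471 of these had the support of a further library. They are called supported gained regions below. Since the siE2F3 and siCtrl lists chose them, their absence from siCtrl and their presence in siE2F3 are a description and not a result.

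All libraries came from the human prostate cancer line 22Rv1, an established line, by chromatin immunoprecipitation followed by sequencing (ChIP-seq). The Pol2S5p libraries, made with an antibody against polymerase II phosphorylated on serine 5, are Ctrl (cells labelled as control), H1-10 OE (cells overexpressing the linker histone variant H1-10), siCtrl (a control siRNA) and siE2F3 (an siRNA against E2F3). The names of the siCtrl and siE2F3 lists carry H1-10_OE and their peak names H1FXOE, H1FX being the older name of H1-10. Their sample labels give only the siRNA. The names thus point to cells that overexpressed H1-10, which the sample labels do not state. Support by Ctrl, and overlaps with E2F3 or H3K27me3 of Ctrl, may therefore cross H1-10 state. E2F3 itself and H3K27me3 were each mapped in Ctrl and in H1-10 OE cells. The series has 22 samples, and the lists of 8 were used, with 1 library in each group. With a single library in a group, differences could not be set against replicate spread, and none was tested. The dose and time of the siRNA and the level of E2F3 left in the cells were not known here.

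Polymerase II gains phosphate at serine 5 in the repeats of its tail as it starts a transcript, so this form is found above all at active promoters and, more weakly, at enhancers and along the first part of transcribed genes. E2F3 is a member of the E2F family, which binds promoters of genes for DNA replication and cell division, under the control of the retinoblastoma protein. H3K27me3 is the histone mark set by Polycomb repressive complex 2 at silenced genes, and H1-10 is a linker histone, which binds DNA where it enters and leaves the nucleosome. Regions are given by position on hg19. Genes at these positions were not assigned, because an hg19 annotation was not used here.

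The supported gained regions were short and weak. Their median width was 385 bp (quartiles 300.0 and 509 bp), and together they covered 0.639 Mb. The siE2F3 regions that had the same support but were shared with siCtrl numbered 30842 and had a median width of 1244 bp (693 and 2148 bp). The narrowest supported gained region spanned 252 bp, as did the narrowest of the shared regions, and the widest spanned 1606 bp, against 38835 bp among the shared. The fold enrichment that the authors' caller gave had a median of 3.84 (3.33 and 4.43) in the supported gained regions and 7.21 (4.78 and 12.0) in the shared ones. The median -log10 q was 4.05 (2.87 and 5.42) against 17.9 (7.53 and 50.8).

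Ranked by -log10 p within the siE2F3 list, the median supported gained region stood at the 30.3 percentile and the highest at the 81.8 percentile. Cut into 3 classes of equal size by the same measure, the weakest class of the list held 803 of them (54.6%, interval 52.0 to 57.1%), the middle class 599 and the strongest 69 (4.69%, 3.72 to 5.89%). Intervals are 95% Wilson intervals and cover counting error only. They count regions as independent, although 363 members lay in windows of 500 kb that held 3 or more, so they may be too narrow. The regions gained without support, 17526 in number, were close to these in width and strength, with a median of 345 bp and a median -log10 q of 3.54. Width and strength follow in part from the rule, since a wide or strong region is more likely to meet a region of the siCtrl list.

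**Figure D1:**
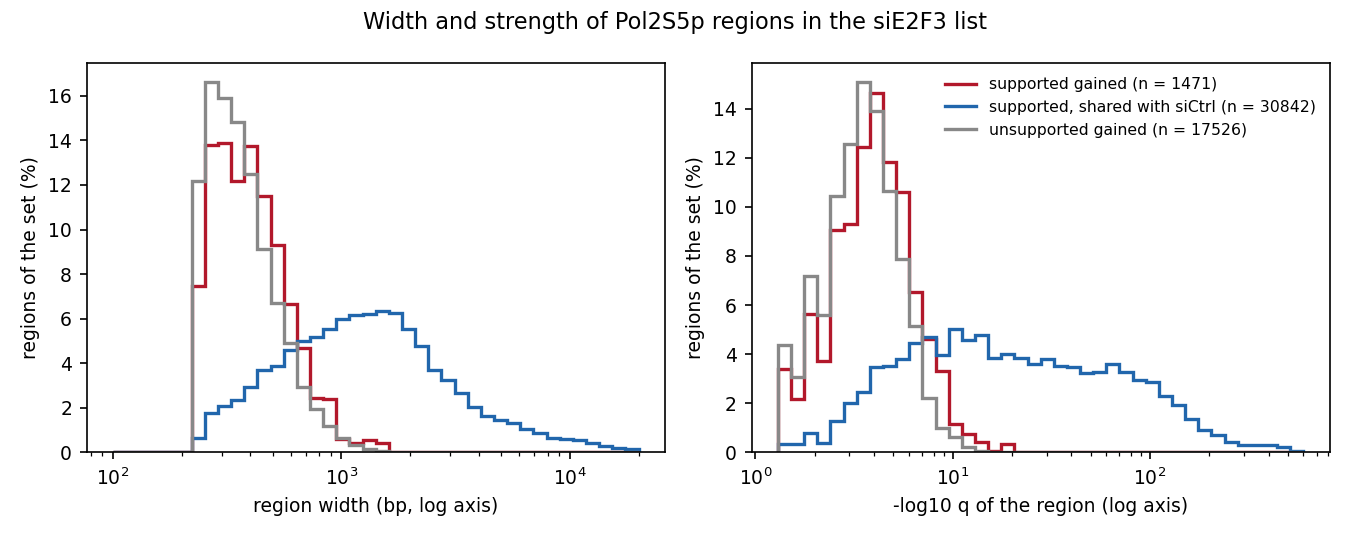
Distribution of region width (left, bp, log axis) and of -log10 q (right, log axis) for 3 sets of the siE2F3 list, as the percent of each set in each bin. The 1471 supported gained regions (red) lie with the 17526 unsupported ones (grey), at medians of 385 and 345 bp, and left of the 30842 supported regions shared with siCtrl (blue), at 1244 bp.

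The background shares of the contrast that chose the regions were as follows. Of the 32313 siE2F3 regions with support in the Ctrl or H1-10 OE list, 4.55% had no overlap in siCtrl, and of the 50754 regions without support, 34.5% had none. In the other direction, 25567 of the 83650 siCtrl regions (30.6%) had no overlap in siE2F3. Among the 31820 siCtrl regions with support, 3172 (9.97%) had no overlap in siE2F3, and these are called supported lost regions. The siCtrl and siE2F3 lists were nearly equal in number, and their lowest -log10 q were 1.315 and 1.305, but siE2F3 covered 90.7 Mb and siCtrl 102.5 Mb. Read depth is unknown here, and a difference in depth between these libraries cannot be told apart from a change of polymerase.

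The rule has a sharp edge of 1 bp, and regions on its 2 sides had similar widths and strengths. The 69 members that lay up to 50 bp from a siCtrl region had a median width of 415 bp and a median -log10 q of 4.00, and the 83 supported siE2F3 regions that overlapped siCtrl by up to 50 bp had 372 bp and 3.59. At the edge of support, 74 members overlapped their supporting regions by up to 50 bp, with a median -log10 q of 4.23, and 65 unsupported gained regions lay within 50 bp of such a region, with 3.59.

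Most of the gains stood beside Pol2S5p that siCtrl already had. The median distance to the nearest siCtrl region was 617 bp (quartiles 246.5 and 2226 bp), where a distance of 1 bp means touching. A siCtrl region lay within 1 kb of 915 of the 1471 (62.2%, 59.7 to 64.6%) and within 5 kb of 1222 (83.1%, 81.1 to 84.9%). For 293 (19.9%, 18.0 to 22.0%) a siCtrl region lay within 1 kb on both sides, so that the gain lay between siCtrl regions. Whether siE2F3 also had those flanking regions was not counted. Supported lost regions lay farther from the siE2F3 list, at a median of 1124 bp, with 47.5% (45.7 to 49.2%) within 1 kb. Unsupported gained regions lay at a median of 1207 bp from siCtrl, with 45.4% (44.7 to 46.2%) within 1 kb.

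**Figure D2:**
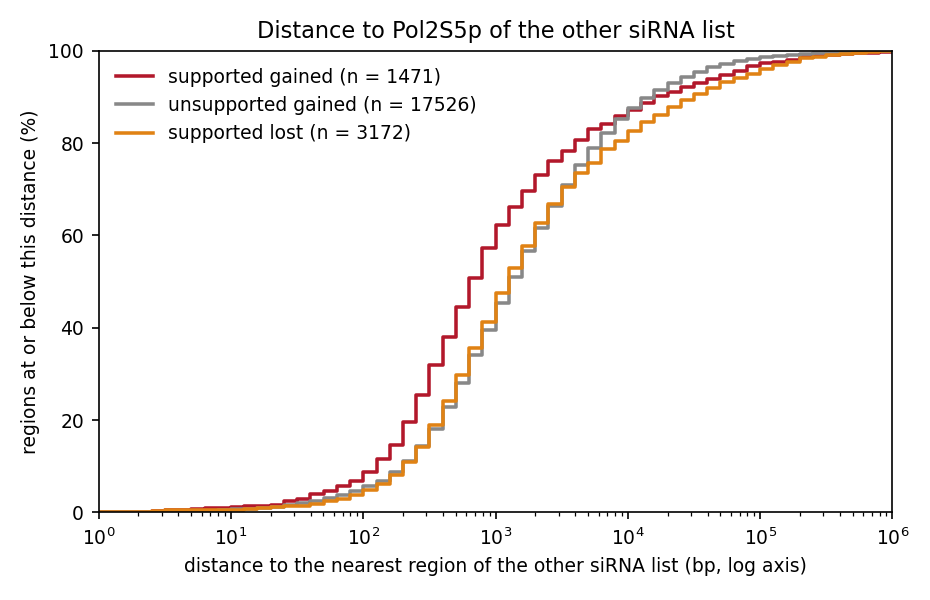
Cumulative percent of regions (vertical axis) by distance to the nearest region of the other siRNA list (horizontal axis, bp, log axis). Supported gained regions (red) reach 62.2% at 1 kb, above supported lost (orange, 47.5%) and unsupported gained regions (grey, 45.4%).

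For 432 of the members (29.4%, 27.1 to 31.7%) the supporting region of Ctrl or H1-10 OE was itself continuous with a siCtrl region: it overlapped both. In these the widest supporting region had a median width of 1682 bp, and the gain lay a median of 226 bp from siCtrl. In the other 1039 members the supporting regions met no siCtrl region; they had a median width of 443 bp, and the gain lay 1040 bp from siCtrl. Of these 1039, 245 (23.6%, 21.1 to 26.3%) were over 5 kb from any siCtrl region. The summit of a member lay a median of 190 bp from the nearest summit of its support, and 110 bp in the 249 members over 5 kb from siCtrl. The 2 summits were within 100 bp in 46.6% (40.5 to 52.8%) of those distant members and in 28.6% (26.2 to 31.2%) of the members within 5 kb. At least 50% of the width of 1045 members (71.0%, 68.7 to 73.3%) was covered by a single supporting list.

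The Ctrl list gave more of the support than the H1-10 OE list. Support came from Ctrl alone in 768 members (52.2%, 49.7 to 54.8%), from H1-10 OE alone in 546 (37.1%, 34.7 to 39.6%) and from both in 157 (10.7%, 9.20 to 12.4%). Among supported lost regions the same classes held 1424 (44.9%, 43.2 to 46.6%), 1281 (40.4%, 38.7 to 42.1%) and 467 (14.7%, 13.5 to 16.0%). In the shared supported regions both lists gave support to 59.0%, Ctrl alone to 14.6% and H1-10 OE alone to 26.5%. There H1-10 OE alone thus gave more support than Ctrl alone, the reverse of the order in the supported gained and lost regions. The members supported by Ctrl alone have a called Pol2S5p region in Ctrl and siE2F3, and none in H1-10 OE and siCtrl. A missing call does not show that polymerase was absent.

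Regions of the supporting lists were also counted, each list with its own denominator. These are not counts of the members. A supporting region that itself overlapped siCtrl is not counted as siE2F3 and not siCtrl. One that is so counted can lie at a siE2F3 region shared with siCtrl. Of the 14544 Ctrl regions with no overlap in H1-10 OE, 650 (4.47%, 4.15 to 4.82%) overlapped siE2F3 and not siCtrl, while 1359 (9.34%, 8.88 to 9.83%) overlapped siCtrl and not siE2F3. Both siRNA lists met 5612 of them and neither list met 6923. The 17405 H1-10 OE regions with no overlap in Ctrl split in a similar way, with 667 (3.83%, 3.56 to 4.13%) in siE2F3 and not siCtrl and 1648 (9.47%, 9.04 to 9.91%) in siCtrl and not siE2F3. Of the 20949 Ctrl regions also present in H1-10 OE, 126 (0.601%) overlapped siE2F3 and not siCtrl, and 472 (2.25%) the reverse.

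E2F3 lay at few of the supported gained regions. The E2F3 list of Ctrl overlapped 95 of the 1471 (6.46%, 5.31 to 7.83%). It overlapped 414 of the 3172 supported lost regions (13.1%, 11.9 to 14.3%), a difference of -6.59 percentage points for gained minus lost (-8.27 to -4.82, Newcombe interval of counting error only). Among supported regions shared by siE2F3 and siCtrl the share was 44.1% (43.6 to 44.7%). Among unsupported gained regions it was 0.411% (0.326 to 0.517%), or 72 regions. The supported gains thus lay between the shared regions and the unsupported gains in this measure. The rule did not use E2F3, but its support came from Ctrl and H1-10 OE, where E2F3 was mapped too. Without support, the siE2F3 regions shared with siCtrl had only 1.19% (1.08 to 1.31%). The order is therefore a description and not separate evidence.

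The share with E2F3 moved by over 1.5 times under some stricter rules, and the supported losses moved with it. With supporting regions of -log10 q of at least 5 it was 12.7% of 638 gained and 20.4% of 1578 lost regions, a difference of -7.71 points (-10.8 to -4.31). With support by both lists it was 14.01% of 157 and 22.7% of 467 (-8.69 points, -14.8 to -1.45). With no region of the other siRNA list within 1 kb it was 10.4% of 556 and 19.3% of 1666 (-8.84 points, -11.8 to -5.48). These rules were applied to the lost regions after the data were seen. Other stricter rules moved the share of the gained regions less. It was 6.90% with siE2F3 regions of -log10 q of at least 5. With the summit inside the support it was 7.68%, and with 50% of the width supported 7.91%.

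The share stayed below that of the shared supported regions within each class of strength and width. In the weakest class of the siE2F3 list, E2F3 of Ctrl overlapped 6.48% of the 803 supported gained and 11.2% of the 3050 shared supported regions, a difference of -4.70 points (-6.61 to -2.51). In the middle class the shares were 6.34% of 599 and 12.7% of 5972, a difference of -6.40 points (-8.30 to -4.01). In the strongest class 5 of 69 gained regions (7.25%) and 57.3% of 21820 shared regions overlapped E2F3. Among regions narrower than 420 bp the shares were 7.66% of 862 and 17.1% of 2868 (-9.43 points, -11.6 to -7.05). Among those of 886 bp and more, 0 of 43 gained regions overlapped E2F3 of Ctrl, where the upper end of the interval for the difference from the shared regions was -46.0 points. Against the supported losses in the same width classes the difference was -4.43 points (-6.81 to -1.91) in the narrowest class and -8.11 points (-10.5 to -5.39) in the middle one.

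Within the members, overlap with E2F3 went with distance from siCtrl. Of the 915 members within 1 kb of a siCtrl region, 37 overlapped E2F3 of Ctrl (4.04%, 2.95 to 5.52%). At 1 to 5 kb it was 13 of 307 (4.23%, 2.49 to 7.11%). Over 5 kb it was 45 of 249 (18.1%, 13.8 to 23.3%), which is 13.98 points (9.52 to 19.3) above the members within 5 kb. Beyond 100 kb it was 12 of 39 (30.8%, 18.6 to 46.4%). The 95 members with E2F3 lay at a median of 4935 bp from siCtrl, and the 1376 without it at 598.5 bp. With E2F3 counted within 1 kb instead of by overlap, the share was 14.3% (12.2 to 16.7%) in members within 1 kb of siCtrl. At 1 to 5 kb from siCtrl it was 4.89% (2.98 to 7.90%), and over 5 kb 19.3% (14.9 to 24.6%). By this measure the share did not rise steadily with distance.

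The share overlapping E2F3 was also higher at greater distance in the supported losses, measured from the siE2F3 list, and in the unsupported gains. In the losses the shares with E2F3 of Ctrl were 6.18% (5.07 to 7.51%) within 1 kb, 11.3% (9.38 to 13.5%) at 1 to 5 kb, 28.5% (25.5 to 31.8%) over 5 kb and 33.9% (26.1 to 42.6%) beyond 100 kb. Gained minus lost was -2.13 points (-3.86 to -0.283) within 1 kb, -7.05 points (-9.89 to -3.60) at 1 to 5 kb, -10.5 points (-15.9 to -4.38) over 5 kb and -3.10 points (-18.1 to 14.4) beyond 100 kb, where 39 gained and 124 lost regions give an interval that includes 0. In the unsupported gained regions the shares were 0.214% within 1 kb of siCtrl, 0.273% at 1 to 5 kb, 1.05% (0.769 to 1.43%) of 3713 over 5 kb and 5.22% (3.08 to 8.73%) of 249 beyond 100 kb. With E2F3 counted within 1 kb, the losses had 19.8% up to 1 kb, 14.9% at 1 to 5 kb and 30.0% over 5 kb. The unsupported gains had 5.15%, 0.581% and 1.32% in the same order. Whether the rise of overlap with distance differed between these sets was not tested.

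**Figure D3:**
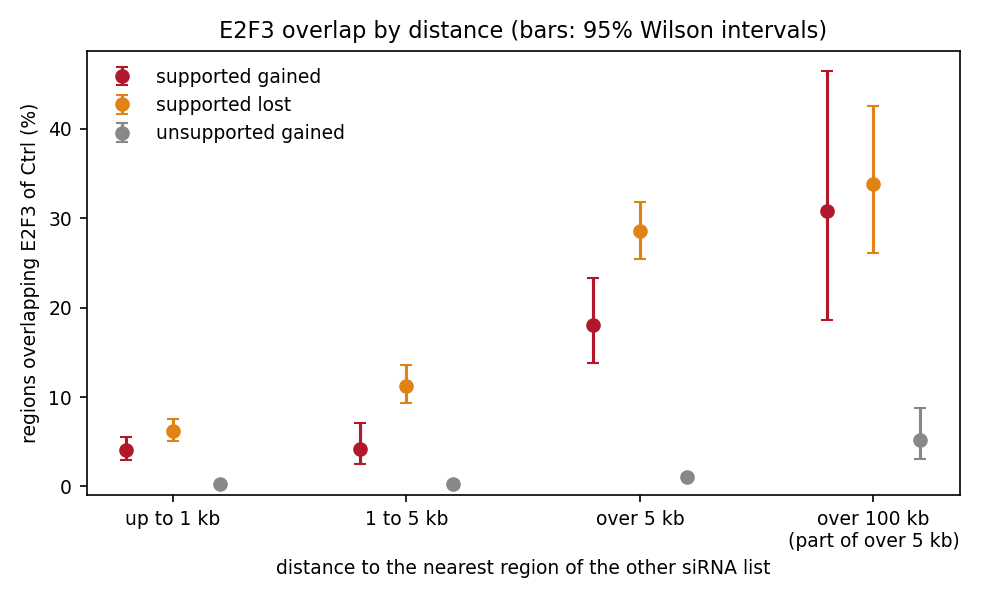
Percent of regions that overlap an E2F3 region of Ctrl (vertical axis) by distance to the nearest region of the other siRNA list, with 95% Wilson intervals as bars. Supported gained regions (red) go from 4.04% within 1 kb to 18.1% over 5 kb, supported lost regions (orange) from 6.18 to 28.5%, and unsupported gained regions (grey) from 0.214 to 1.05%.

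The overlap with E2F3 also differed by the kind of support. Members supported by both lists overlapped E2F3 of Ctrl in 22 of 157 (14.01%, 9.44 to 20.3%), those supported by Ctrl alone in 54 of 768 (7.03%, 5.43 to 9.06%) and those supported by H1-10 OE alone in 19 of 546 (3.48%, 2.24 to 5.37%). Over 5 kb from siCtrl these shares were 11 of 21 (52.4%, 32.4 to 71.7%), 23 of 127 (18.1%, 12.4 to 25.7%) and 11 of 101 (10.9%, 6.19 to 18.5%). Where E2F3 was present, its summit lay a median of 170 bp from the Pol2S5p summit of the member. The E2F3 fold at these 95 members had a median of 7.97 (quartiles 5.77 and 11.6), against 8.98 (5.91 and 15.7) over all 22988 E2F3 regions of Ctrl and 12.7 at the shared supported regions that carried E2F3.

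E2F3 of the H1-10 OE list, a shorter list of 4296 regions, overlapped fewer of them. It met 8 of the 1471 members (0.544%, 0.276 to 1.07%), all 8 over 5 kb from siCtrl. It overlapped 134 of the 3172 supported lost regions (4.22%, 3.58 to 4.98%), a difference of -3.68 points (-4.48 to -2.85). The share was 1.85% among the shared supported regions and 0.0799% among the unsupported gained regions, from which the members differed by -1.31 points (-1.62 to -0.762) and 0.464 points (0.191 to 0.991). Within the weakest class of the siE2F3 list the difference from the shared regions was -0.0659 points (-0.574 to 0.794), an interval that includes 0. Over 5 kb from the other siRNA list the shares were 3.21% (1.64 to 6.21%) of the gained and 15.2% (12.8 to 17.9%) of the lost regions. H1-10 OE alone supported 7 of the 8 members, and 1 had support from both lists.

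H3K27me3 regions were rare at supported gained regions, as in the other sets. The H3K27me3 list of Ctrl held only 2540 regions covering 1.52 Mb, and that of H1-10 OE 18395 regions covering 10.1 Mb. The size of each list limits its overlaps, so counts for the 2 lists are not on an equal scale. None of the 1471 overlapped an H3K27me3 region of Ctrl, which allows a share of up to 0.204% by 3 counts of the total and up to 0.260% by the Wilson interval, and 5 (0.340%) overlapped one of H1-10 OE. The same overlaps were 0.697% and 0.493% in the shared supported regions, 0.599% and 1.42% in the supported lost regions and 0.0856% and 0.0799% in the unsupported gained regions. Within 5 kb, H3K27me3 of Ctrl lay near 7 members (0.476%, 0.231 to 0.979%) and H3K27me3 of H1-10 OE near 15 (1.02%, 0.619 to 1.68%). The supported lost regions lay within 5 kb of the 2 lists in 1.42% (1.06 to 1.89%) and 3.66% (3.06 to 4.37%), so gained minus lost was -0.943 points (-1.48 to -0.326) and -2.64 points (-3.45 to -1.75). Shared supported regions had 1.45% and 1.53%. For H3K27me3 of H1-10 OE the difference from the shared regions was -0.507 points (-0.933 to 0.161), an interval that includes 0. Unsupported gained regions had 0.399% and 0.297%, from which the members differed by 0.0765 points (-0.190 to 0.586) and 0.723 points (0.312 to 1.38).

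The strongest single gain lay on chromosome 9 at 100499575 to 100500447. Its fold was 8.93 in siE2F3, 4.33 in Ctrl and 6.06 in H1-10 OE, and the nearest siCtrl region was 2.98 kb away. Folds belong to their own list, so their levels are not compared between lists. A fold given for Ctrl, H1-10 OE or E2F3 is that of the overlapping region, whose summit can lie outside the member. Its summit was 3 bp from the nearest supporting summit, and no E2F3 region of Ctrl lay within 39.7 kb. The next by significance, on chromosome 1 at 50489591 to 50489917, spanned 327 bp, and its siE2F3 fold was 8.54. H1-10 OE had a region there with a fold of 6.28, Ctrl had none within 309 kb and siCtrl none within 308.7 kb, and E2F3 of Ctrl was present with a fold of 23.2.

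Several of the leading gains lay next to siCtrl regions. The member on chromosome 19 at 2948142 to 2948961, with 7.66 in siE2F3, lay 182 bp from a siCtrl region with a fold of 21.3. Its Ctrl region, 3706 bp wide and with a fold of 12.6, ran from 2944559 to 2948264. It thus met only the start of the member. The H1-10 OE region, with a fold of 5.54, ran from 2948593 to 2949140. The nearest supporting summit was 486 bp from that of the member. On chromosome 15 at 80432846 to 80433343 the folds were 7.96 in siE2F3, 3.92 in Ctrl and 4.57 in H1-10 OE, and siCtrl was 162 bp away. The member on chromosome 2 at 61747411 to 61748154, with 8.32 in siE2F3, lay 411 bp from a siCtrl region of 7442 bp. Its supporting Ctrl region, with a fold of 4.64, ran from 61748150 to 61748589 and so met only the end of the member. The summits of the member and of that Ctrl region were 695 bp apart. H1-10 OE had no region at this place, the nearest being 2471 bp away. All 3 thus lay within 1 kb of Pol2S5p that siCtrl had.

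Others of the leading 10 stood alone. On chromosome 11 at 5526634 to 5527083 the fold was 9.28 in siE2F3, the highest of all members, and 10.6 in Ctrl, with siCtrl 90.04 kb and H1-10 OE 90.2 kb away. The summits of siE2F3 and Ctrl differed by 2 bp there. On chromosome 13 at 50180981 to 50181385 the folds were 7.27 in siE2F3 and 4.86 in Ctrl, and siCtrl was 20.6 kb away. On chromosome 17 at 56234317 to 56234747 they were 7.04 and 10.1, with siCtrl 42.7 kb away and the summits 7 bp apart. None of these 3 overlapped E2F3 of Ctrl or a Pol2S5p region of H1-10 OE. The remaining members of the leading 10, on chromosome 7 at 104747851 to 104748371 and on chromosome 10 at 62550022 to 62550530, were also supported by Ctrl alone, with siE2F3 folds of 7.68 and 7.63 and siCtrl regions at 1.41 and 4.17 kb.

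Next among the members over 5 kb from siCtrl came chromosome 2 at 47418699 to 47419068, with 6.598 in siE2F3 and 4.55 in H1-10 OE. Its nearest siCtrl region, 14.2 kb away, had a fold of 37.5 and a width of 5542 bp. Among members supported by both lists, chromosome 12 at 112466549 to 112467493 had folds of 7.10 in siE2F3, 3.33 in Ctrl and 4.26 in H1-10 OE, with siCtrl at 1.78 kb. Chromosome 17 at 33390439 to 33391018 had 6.10, 4.07 and 5.31 in the same order, with siCtrl at 24.4 kb. The 5 widest members were named by width alone, and the 1606 bp on chromosome 1 at 31447329 to 31448934 had 6.36 in siE2F3, and those on chromosome 8 at 125502310 to 125503826, chromosome 17 at 17157415 to 17158889, chromosome 16 at 3638744 to 3640169 and chromosome 6 at 138740481 to 138741906 had 4.08, 4.66, 5.13 and 3.37. The siCtrl list lay 250 bp, 280 bp, 136 bp and 2.69 kb from these 4.

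After the region on chromosome 1, the most significant members with E2F3 of Ctrl were as follows. On chromosome 7 at 47268212 to 47268560 the Pol2S5p folds were 6.79 in siE2F3 and 5.85 in H1-10 OE, the E2F3 fold was 16.5, and siCtrl was 24.6 kb away. On chromosome 1 at 27339764 to 27340060 the folds were 6.33 in siE2F3, 7.03 in Ctrl and 5.32 in H1-10 OE, with an E2F3 fold of 32.1 and a siCtrl region 209 bp away. On chromosome 12 at 113376052 to 113376589 they were 6.51 in siE2F3 and 6.997 in Ctrl, with an E2F3 fold of 32.2 and siCtrl 214 kb away. On chromosome 2 at 224588378 to 224588933 they were 5.28 in siE2F3 and 24.7 in Ctrl, with an E2F3 fold of 16.8 and siCtrl 31.7 kb away. The first and the second of these 4 had H1-10 OE support, and the last 2 had Ctrl alone.

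The 12 members over 100 kb from siCtrl that carried E2F3 of Ctrl were singled out after their values were seen. Ctrl alone supported 9 of them, H1-10 OE alone 2 and both lists 1. By -log10 p, their strongest support stood at a median percentile of 72.0 in its own list. The 12 members themselves stood at a median percentile of 36.1 in siE2F3. Examples with strong Ctrl regions were chromosome 15 at 26874057 to 26874738 (20.8 in Ctrl, 4.35 in siE2F3, E2F3 16.3), chromosome 2 at 14772684 to 14772943 (27.3, 2.67 and 10.0) and chromosome 11 at 49229755 to 49230038 (22.0, 4.97 and 7.97), all values being folds of their own list. The nearest siCtrl regions were 546, 908 and 1072 kb away. Their -log10 q in siE2F3 was 4.34, 1.93 and 5.98, where the list ended at 1.305. The Ctrl regions were 866, 4135 and 7507 bp wide, and the members 682, 260 and 284 bp. The region on chromosome 2 also overlapped H3K27me3 of H1-10 OE, with a fold of 9.86. Chromosome 1 at 98386390 to 98386696 had 11.2 in Ctrl, 3.71 in siE2F3 and 18.3 for E2F3, and chromosome 15 at 39872638 to 39873183 had 11.3, 3.27 and 12.7. Both were absent from H1-10 OE and siCtrl, the latter lying 740 and 159 kb away. In siE2F3 their -log10 q was 4.43 and 1.98.

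The 5 most significant members with E2F3 of H1-10 OE lay on chromosome 4 at 159731839 to 159732281, chromosome 14 at 68759239 to 68759613 and at 39808167 to 39808423, chromosome 17 at 68674332 to 68674878 and chromosome 1 at 24345181 to 24345587. Their Pol2S5p folds in siE2F3 were 4.40, 4.32, 3.40, 3.36 and 3.87, and their E2F3 folds in H1-10 OE were 10.1, 6.28, 7.60, 8.23 and 5.88. The siCtrl list lay 36.8 to 508 kb away. The last of them also carried E2F3 of Ctrl, with a fold of 18.3, and had Pol2S5p in both Ctrl and H1-10 OE; the other four had Pol2S5p in H1-10 OE and not in Ctrl.

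Of the 7 members near H3K27me3 of Ctrl, 5 had the support of H1-10 OE alone, against 37.1% of all members, and a count of 7 is too small to read a difference from. The most significant was on chromosome 1 at 2985466 to 2985811, with folds of 4.97 in siE2F3 and 4.79 in H1-10 OE. H3K27me3 of Ctrl lay 0.271 kb from it and siCtrl 0.199 kb. Chromosome 16 at 88272310 to 88272660 (4.44 in siE2F3, 5.32 in H1-10 OE) and chromosome 9 at 89558685 to 89559190 (3.37 and 8.08) lay 2803 and 1327 bp from the mark, and chromosome 20 at 57387555 to 57387806 (3.74 and 3.41) 3562 bp. Chromosome 6 at 170475373 to 170475669 had Ctrl support, with folds of 3.99 and 3.29, and lay 4931 bp from it.

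Near H3K27me3 of H1-10 OE, Ctrl alone supported 9 of the 15 members, and it supported 52.2% of all members. The most significant, on chromosome 1 at 121132908 to 121133292, had folds of 4.57 in siE2F3 and 4.64 in Ctrl and lay 4848 bp from the mark. On chromosome 8 at 85095361 to 85095765 the folds were 4.88 in siE2F3 and 5.12 in Ctrl. That region overlapped both E2F3 of Ctrl (5.42) and H3K27me3 of H1-10 OE (3.98), and H1-10 OE had no Pol2S5p within 203 kb. Chromosome 22 at 50037800 to 50038199 had 4.66 in siE2F3 and 4.13 in Ctrl, with the mark 1998 bp away. Chromosome 12 at 119614020 to 119614271 (4.08 and 3.79) and chromosome 1 at 212783724 to 212784395 (3.16 and 4.65) had H1-10 OE support and lay 2892 and 3094 bp from the mark.

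The members were spread over the 22 autosomes and chromosome X, with some chromosomes above their share of the shared supported regions. Chromosome 5 held 94 members (6.39%, 5.25 to 7.76%) against 4.12% (3.90 to 4.35%) of the shared regions and 4.79% of the supported lost ones. Chromosome 15 held 75 (5.10%, 4.09 to 6.34%) against 3.12% (2.93 to 3.32%) and 3.28%, and chromosome 13 held 39 (2.65%, 1.95 to 3.604%) against 1.68% (1.55 to 1.83%) and 1.73%. Chromosome 19 was below, with 98 members (6.66%, 5.50 to 8.05%) against 8.27% (7.97 to 8.58%) and 8.80%. Chromosome X had 30 (2.04%, 1.43 to 2.90%) against 3.08% (2.89 to 3.28%) and 2.62%. These chromosomes were picked after the values were seen.

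**Figure D4:**
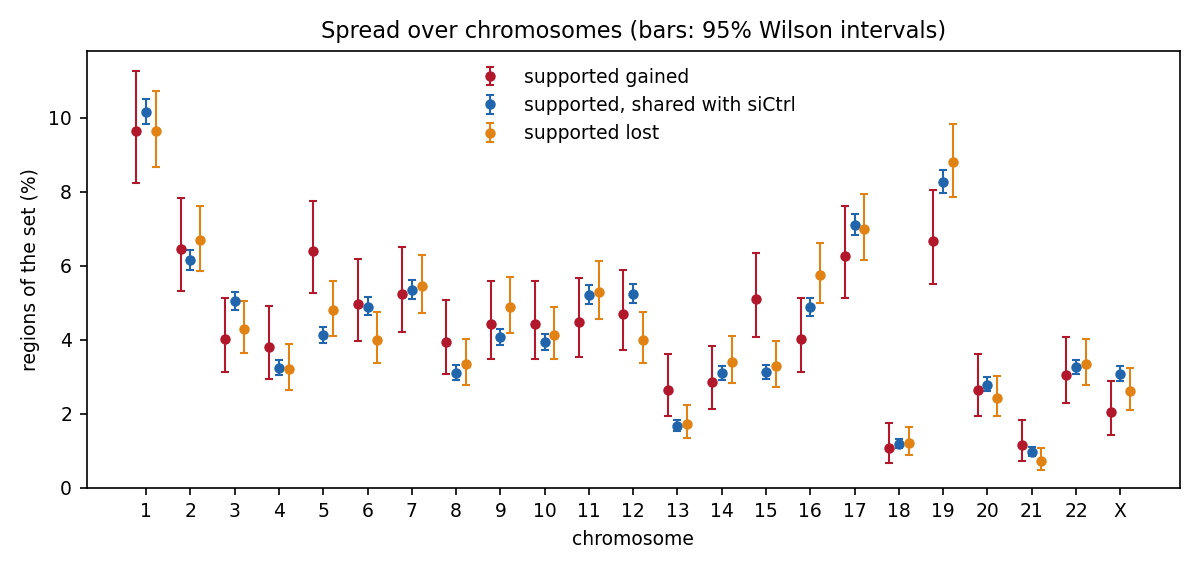
Percent of each set found on each chromosome (vertical axis), with 95% Wilson intervals, for supported gained regions (red), supported regions shared with siCtrl (blue) and supported lost regions (orange). Chromosomes 5, 13 and 15 held 6.39, 2.65 and 5.10% of the gained and 4.12, 1.68 and 3.12% of the shared regions.

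On chromosomes 5 and 15 a part of this came from a few windows. Of the 994 windows of 500 kb that held a member, 686 held 1, 211 held 2 and 97 held 3 or more. The most, 11, lay on chromosome 15 between 85 and 85.5 Mb, from 85219990 to 85354732. Next came chromosome 5 between 70.5 and 71 Mb and chromosome 9 between 131.5 and 132 Mb with 9 each, chromosome 1 between 27 and 27.5 Mb and chromosome 19 between 58.5 and 59 Mb with 8 each, and chromosome 22 between 31.5 and 32 Mb and chromosome 5 between 86.5 and 87 Mb with 7 each. Without the 10 windows that held most members, which was tried after seeing the data, chromosome 15 held 59 of 1396 members (4.23%, 3.29 to 5.41%) against 2.93% of the shared regions, and chromosome 5 held 78 (5.59%, 4.50 to 6.92%) against 4.11%.

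The cover of these windows by Pol2S5p regions is given as a description, since the windows were picked for their gains, most of which had the support of Ctrl alone. Over the whole lists the cover was 43.1 Mb in Ctrl, 39.1 Mb in H1-10 OE, 102.5 Mb in siCtrl, and in siE2F3 90.7 Mb. The chromosome 15 window had 150.5 kb under Pol2S5p regions in Ctrl, 21.8 kb in H1-10 OE, 64.3 kb in siCtrl, and in siE2F3 57.3 kb. Its 11 gains were accompanied by 13 supported losses. On chromosome 9 at 131.5 to 132 Mb, 7 of the 9 members lay within a Ctrl region of 45.2 kb, and the cover was 122 kb in Ctrl, 53.6 kb in H1-10 OE, 166 kb in siCtrl, and in siE2F3 128 kb. The window on chromosome 1 at 27 to 27.5 Mb had 149.8 kb in Ctrl, 25.7 kb in H1-10 OE, 82.6 kb in siCtrl and 74.1 kb in siE2F3, with 8 gains and 9 supported losses.

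In 3 of the windows the siE2F3 list, whose cover includes the gains themselves, covered more than the siCtrl list. Chromosome 5 at 70.5 to 71 Mb had 34.0 kb in Ctrl, 3.48 kb in H1-10 OE, 15.6 kb in siCtrl and 22.2 kb in siE2F3, and its 9 gains stood beside 4 supported losses. All 9 were supported by Ctrl alone, with siE2F3 -log10 q of 1.63 to 9.31, and none overlapped E2F3 of Ctrl. Chromosome 5 at 86.5 to 87 Mb had 22.3 kb in Ctrl, 3.799 kb in H1-10 OE, 10.7 kb in siCtrl and 18.9 kb in siE2F3, with 7 gains, all supported by Ctrl alone, and 2 supported losses. Chromosome 7 at 104.5 to 105 Mb had 30.2, 10.7, 34.3 and 36.0 kb in the same order of lists, with 6 gains and 1 supported loss; its gains, all supported by Ctrl alone, lay within 21.3 kb. The windows were chosen after their values were seen.

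**Figure D5:**
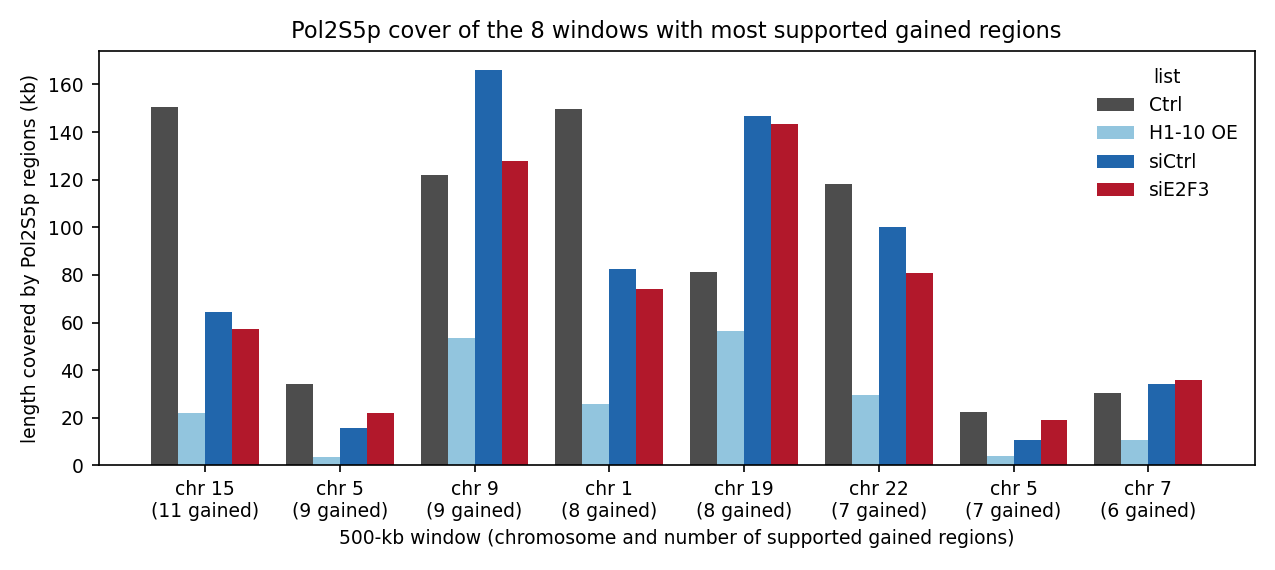
Length covered by Pol2S5p regions (vertical axis, kb) in the Ctrl, H1-10 OE, siCtrl and siE2F3 lists for the 8 windows of 500 kb with most supported gained regions, named by chromosome and number of gained regions. Ctrl stood above H1-10 OE in each of them, and siE2F3 stood above siCtrl in the windows of chromosome 5 and chromosome 7.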

How the data were processed

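Peak lists of 8 ChIP-seq libraries were used, 1 per group, and the other 14 samples were not analysed here. The build was hg19 and reads passed through fastp, FastQC and Bowtie, per the submitters' processing notes; for versions, peak caller, stated threshold and the input used by the caller the sources used here give nothing. Every list ended at a -log10 q between 1.30 and 1.35. The labels also name input libraries, which were not analysed here. The authors deposited 1 list per library, with a score, a fold enrichment (a ratio to their caller's background), -log10 p, -log10 q and a summit offset. The folder label in the peak names was 1 text for E2F3, siCtrl and siE2F3 and a different text for H3K27me3 and both supporting lists, so support and H3K27me3 overlaps cross that label; its part in the results was not tested.

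From the lists, overlap meant at least 1 bp, and no 2 regions of a list overlapped. Members and lists were chosen with earlier results of these data known. Shares carry 95% Wilson intervals and differences Newcombe intervals, and both count regions as independent. Strength classes were 3 classes of equal size of the siE2F3 list by -log10 p, and width classes were bounded at 420 and 886 bp. The lists differ in length and depth is unknown, so no interval covers depth. Regions were named by rule: the 10 with the highest -log10 q; the 5 highest over 5 kb from siCtrl, with E2F3 of Ctrl, with E2F3 of H1-10 OE, within 5 kb of each H3K27me3 list, or with both supports; and the 5 widest. These were 37 regions. The planned counts of gene starts and gene lists need an hg19 annotation and were not made. Coordinates are 1-based. Code was tested on simulated lists. Python 3.11.15, numpy 2.4.6, pandas 2.3.3, scipy 1.17.1, matplotlib 3.10.9 and bedtools 2.31.1 were used.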

Additional observations from a re-analysis of the deposited data

How the results depend on the processing

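No paired analysis was possible because each group has 1 library. With siE2F3 regions of -log10 q of at least 5, 478 members remained, with a median width of 412 bp and 0.209% within 5 kb of H3K27me3 of Ctrl. With supporting regions of -log10 q of at least 5 there were 638 (median 376.5 bp), of which 12.7% overlapped E2F3 of Ctrl, and 27.4% did so over 5 kb from siCtrl. With no siCtrl region within 1 kb there were 556 (376 bp, 4133 bp from siCtrl), with 10.4% at E2F3 of Ctrl, 1.44% at E2F3 of H1-10 OE and 1.80% within 5 kb of H3K27me3 of H1-10 OE. With 50% of the width supported, the median width was 373 bp, the distance 693 bp and the E2F3 Ctrl share 7.91%, and with the summit inside the support the width was 374 bp and the distance 682 bp. Support by both lists left 157 regions (405 bp, 496 bp from siCtrl), with 14.01% at E2F3 of Ctrl, 52.4% over 5 kb, and 1.91% near H3K27me3 of H1-10 OE. Merging regions within 1 kb left 692 (401 bp, 2406 bp from siCtrl), with 10.1% at E2F3 of Ctrl, 1.16% at E2F3 of H1-10 OE and 1.73% near H3K27me3 of H1-10 OE. Requiring the summit inside E2F3 of Ctrl, added after the data were seen, gave 5.10%. H3K27me3 of Ctrl was overlapped by 0% and lay within 1 kb of 0.136%; for H1-10 OE these were 0.340 and 0.544%. Each stricter rule keeps fewer regions by design, while merging joins neighbouring regions and so changes the unit that is counted. The cause of the other changes was not tested. With autosomes alone, all 8 results stayed within their intervals or within 1.5 times the count. The planned window around gene starts was not run, for want of an hg19 annotation. Read depth is unknown and limits every count.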

Other observations

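Many members shared their values exactly: the 1471 regions held 528 distinct pairs of fold and -log10 p, 173 of them had 1 of the 5 most frequent pairs, and 317 had a pair that occurred once. The E2F3 fold was a median of 8.93 at the 45 distant members with E2F3 and 6.55 at the 50 within 5 kb.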
